A study of Homo sapiens with 12 samples.

Results

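ERH, CEP20 and NUF2 are 3 genes of cell division and RNA handling that were singled out because their mRNA was lowest on the same 3 arrays on which cyclin D1 mRNA was lowest. They are 3 of 13492 genes with a tested probe, read by 5 of the 48803 probes, and all 5 were among the 26814 probes (54.9%) above background on at least 3 of the 12 arrays. ERH and CEP20 had 1 probe each (ILMN_1781795 and ILMN_1790650) and NUF2 had 3 (ILMN_1658695, ILMN_2406724 and ILMN_1802951). The members were selected on the measured values: their intensities had to be lowest on the 3 arrays where the CCND1 probe ILMN_1688480 lay below 4000. The low values on those 3 arrays are therefore given as a description, with no test.

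The arrays held total RNA of MDA-MB-231, an established human breast cancer line that lacks the oestrogen receptor. Cyclin D1, the product of CCND1, binds the kinases CDK4 and CDK6, and the study asked how gene expression changed when these proteins were silenced with small interfering RNA (siRNA). The labels give 4 groups of 3 arrays: controls, a non-targeting siRNA pool, siRNA against cyclin D1, and siRNA against CDK4/6. The arrays titled as controls are called no siRNA here. All 12 samples were the same cell line. Legends in the study describe its plots as means over independent experiments, but no label ties an array to one, and p-values below measure the spread between these arrays, which may be partly technical. Arrays are named here by their label and replicate number.

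The targeted genes went against several labels. CCND1 intensity was 2702.5 on no siRNA 2, 2951.1 on non-targeting siRNA 1 and 3513.1 on cyclin D1 siRNA 2, the 3 arrays below 4000. It was 4311.2 on non-targeting siRNA 3, 4361.3 on CDK4/6 siRNA 3 and 5100.1 on cyclin D1 siRNA 3, and 13658.8 to 15393.1 on the remaining 6 arrays, which include cyclin D1 siRNA 1 at 13878.3. CDK4 was 274.9 on non-targeting siRNA 2, 301.2 on no siRNA 3 and 408.6 on CDK4/6 siRNA 2, and at least 2167.4 on the other 9 arrays. CDK6 was lowest on those same 3 arrays, at 275.8, 283.3 and 333.5. Only 2 of the 3 arrays labelled cyclin D1 siRNA and 1 of the 3 labelled CDK4/6 siRNA thus had a low target. In the order in which the samples are listed, the 3 arrays with CCND1 below 4000 follow one another, and so do the 3 with low CDK4 and CDK6. The groups were kept as labelled, and comparisons between them are therefore not comparisons of arrays with and without a low target. The line's mesenchymal markers VIM (15294.5 to 16971.2), CD44 (10316.9 to 13020.6), AXL and CAV1 were bright on every array, ZEB1 was dim (68.1 to 98.8) and SPARC did not pass the filter on dim probes. Of 8 luminal breast markers, ESR1, PGR and FOXA1 did not pass it either. The other 5 did, with KRT18 at 5192.2 to 6214.6, KRT8 at 933.0 to 1294.1, GATA3 at 80.2 to 99.6 and EPCAM at 63.1 to 80.3 on all 12 arrays, and CDH1 above background on 8. The filter was also not passed by the leukocyte and endothelial markers PTPRC, CD3E, CDH5 and VWF, while CD14 (245.2 to 399.5) and PECAM1 (87.8 to 106.3) were above background on all 12 arrays. VIM, CD44, AXL, CAV1 and ZEB1 together deviated from their 12-array means by 0.02 to 0.06 on the log2 scale on the 3 low-CCND1 arrays, against -0.14 to 0.04 on the other 9.

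The members work in different parts of the cell. ERH is a small, highly conserved nuclear protein that binds splicing and RNA-processing factors and takes part in microRNA processing beside the Microprocessor enzymes DROSHA and DGCR8. CEP20, known earlier as FOPNL or FOR20, is a protein of centrioles and centriolar satellites that is needed for building cilia. NUF2 forms, with NDC80, SPC24 and SPC25, the complex that attaches kinetochores to spindle microtubules in mitosis. An siRNA lowers its intended target by pairing with the mRNA, and can also lower other mRNAs that share a short stretch of sequence with it. The sequences of the siRNAs used were not analysed here, and no such match was looked for.

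The promoters are shown because the members' low values coincided on the same arrays, and so that the motifs of cell cycle control searched in them can be read in place. The sequences are from RefSeq on GRCh38.p14 and run from 250 bases before the annotated start to 30 bases after it, on the gene's strand. They lie at chr14:69398270-69398549 (minus strand) for ERH, chr16:15888574-15888853 (minus strand) for CEP20 and chr1:163321704-163321983 (plus strand) for NUF2. Capitals mark a CCAAT box read on the opposite strand, and so printed as ATTGG, in ERH and CEP20, and the cell cycle homology region (CHR) motif TTTGAA in NUF2.
ERH: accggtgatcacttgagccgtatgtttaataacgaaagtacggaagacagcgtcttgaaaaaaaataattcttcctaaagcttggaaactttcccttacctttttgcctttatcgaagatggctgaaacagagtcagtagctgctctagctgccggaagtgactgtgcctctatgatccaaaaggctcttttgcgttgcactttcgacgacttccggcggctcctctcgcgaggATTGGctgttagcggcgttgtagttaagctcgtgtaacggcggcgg
CEP20: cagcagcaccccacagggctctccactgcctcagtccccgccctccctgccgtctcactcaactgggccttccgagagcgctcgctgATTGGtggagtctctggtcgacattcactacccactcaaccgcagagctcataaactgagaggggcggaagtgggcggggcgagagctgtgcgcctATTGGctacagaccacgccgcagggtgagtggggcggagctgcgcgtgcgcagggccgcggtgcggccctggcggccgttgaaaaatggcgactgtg
NUF2: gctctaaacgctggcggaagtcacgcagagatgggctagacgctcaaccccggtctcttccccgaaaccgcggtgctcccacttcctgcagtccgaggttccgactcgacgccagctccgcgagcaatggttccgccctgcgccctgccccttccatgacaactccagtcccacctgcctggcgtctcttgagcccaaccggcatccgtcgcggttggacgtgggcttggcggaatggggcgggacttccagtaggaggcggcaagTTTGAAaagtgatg

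No motif searched, on both strands, occurred in all 3 promoters. The E2F letters TTTCCCGC, TTTGGCGC and TTTCGCGC occurred in none of the 3, and in 2.74% of the 35116 promoters of the table. The CCAAT box began 16 bases before the ERH start and 163 and 67 bases before the CEP20 start, and 34.6% of all promoters held one. The CHR letters, TTTGAA or TTCGAA, occurred in NUF2 only, 17 bases after its start, and in 16.4% of all promoters. The 300-base promoters had a GC content of 49.3% in ERH, 65.3% in CEP20 and 62.3% in NUF2, with a median of 58.7% over all promoters.

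ERH mRNA was low on 3 arrays and near a common level on the other 9. Its intensity was 1089.7 on no siRNA 2, 1423.0 on cyclin D1 siRNA 2 and 1459.4 on non-targeting siRNA 1. On the other 9 arrays it ran from 2744.6 (no siRNA 3) to 3662.4 (non-targeting siRNA 3), with 2886.6 on CDK4/6 siRNA 3, 2926.4 on cyclin D1 siRNA 1, 3012.7 on CDK4/6 siRNA 2, 3139.1 on non-targeting siRNA 2, 3418.5 on cyclin D1 siRNA 3, 3593.1 on CDK4/6 siRNA 1 and 3621.5 on no siRNA 1. The 3 low arrays stood at 29.8%, 38.9% and 39.8% of the highest array, and none of them reached the range of the other 9. The gap ratio, the lowest of the other 9 arrays over the highest of the 3, was 1.88, and ERH ranked 3 of 26814 tested probes by it. The highest array exceeded the lowest 3.36-fold, and 3.45-fold once the background mode of 39.5 was taken off. ERH has no second probe on the array to set beside the first, and the RefSeq gene table lists 2 ERH pseudogenes, whose cross-hybridization to the probe was not tested.

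CEP20 mRNA was low on the same arrays, with an empty interval below the rest that was wider than that of ERH as a ratio. Its intensity was 650.8 on no siRNA 2, 737.7 on non-targeting siRNA 1 and 787.7 on cyclin D1 siRNA 2. Elsewhere it was 1648.1 on CDK4/6 siRNA 3, 1692.8 on cyclin D1 siRNA 3, 1753.8 on non-targeting siRNA 3, 1777.0 on no siRNA 3, 1913.0 on non-targeting siRNA 2, 1930.5 on CDK4/6 siRNA 1, 1987.1 on no siRNA 1, 2005.5 on CDK4/6 siRNA 2 and 2165.3 on cyclin D1 siRNA 1. The low arrays were at 30.1%, 34.1% and 36.4% of the highest. The gap ratio was 2.09, rank 2 of all tested probes, and the highest array exceeded the lowest 3.33-fold. CEP20, like ERH, was read by a single probe, so no other probe of the gene bears on these values.

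NUF2 was read by 3 probes, and the brightest of them showed the pattern most clearly. ILMN_1658695, annotated to NM_031423, was at 173.9 on no siRNA 2, 194.5 on non-targeting siRNA 1 and 250.7 on cyclin D1 siRNA 2. It was 359.7 on cyclin D1 siRNA 3, 387.1 on CDK4/6 siRNA 2, 440.1 on CDK4/6 siRNA 3, 466.8 on non-targeting siRNA 2, 507.1 on cyclin D1 siRNA 1, 521.8 on no siRNA 1, 534.3 on no siRNA 3, 547.8 on non-targeting siRNA 3 and 691.0 on CDK4/6 siRNA 1. The groups of arrays did not overlap, with a gap ratio of 1.43 (rank 7), and the 9 higher arrays were more spread out than those of ERH or CEP20. The highest array exceeded the lowest 3.97-fold, and 4.85-fold with the background mode taken off.

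The other NUF2 probes were dimmer and separated the arrays less. ILMN_1802951, annotated to the transcript NM_145697, was at 69.0, 75.6 and 68.2 on no siRNA 2, non-targeting siRNA 1 and cyclin D1 siRNA 2, and at 80.5 to 155.5 on the other 9 arrays, a gap ratio of 1.06 (rank 131). ILMN_2406724, annotated to NM_031423 like the brightest probe, was at 43.2, 44.4 and 48.0 on those 3 arrays and at 48.1 to 64.1 on the other 9. Its gap ratio was 1.0, and it lay above the background level of 44.4 on 10 of the 12 arrays. All 3 NUF2 probes had their 3 lowest values on the 3 low-CCND1 arrays, for which NUF2 was chosen as a gene. For ILMN_2406724 this order rested on 48.0 against 48.1. How far the dimmer probes fell depended on the background. The highest over the lowest array was 2.28 for ILMN_1802951 and 1.48 for ILMN_2406724 on the deposited scale, and 4.04 and 6.65 with the background mode removed.

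**Figure D1:**
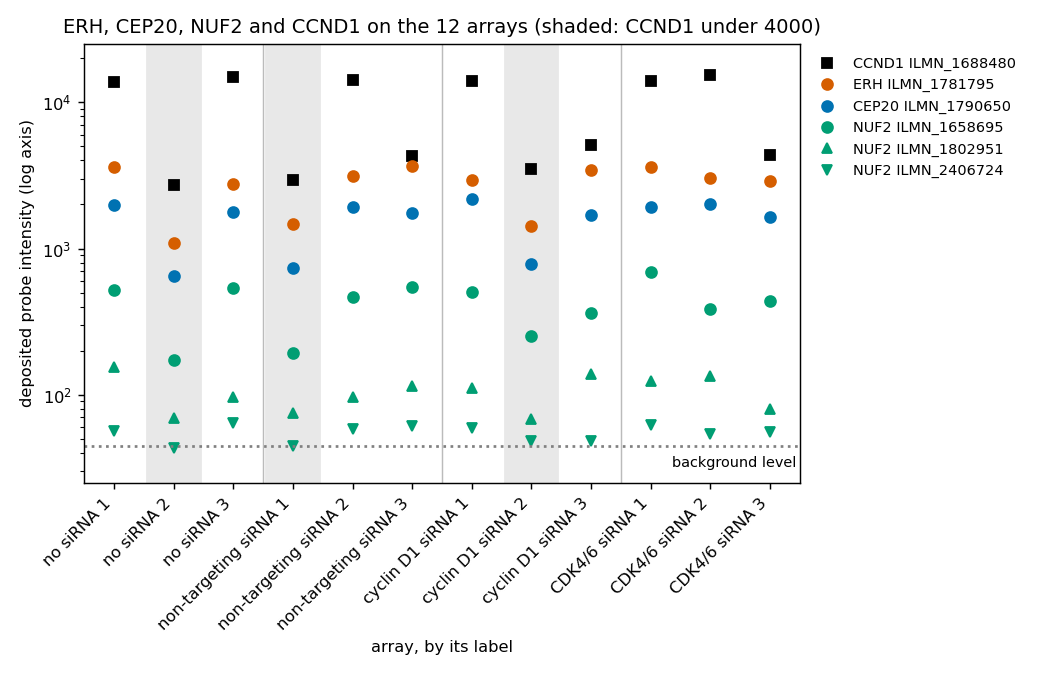
Deposited probe intensity (log axis) of CCND1 and of the 5 ERH, CEP20 and NUF2 probes on each of the 12 arrays, ordered by label, with the 3 arrays of CCND1 below 4000 shaded and the background level of 44.4 dotted. ERH (1089.7 to 1459.4), CEP20 (650.8 to 787.7) and NUF2 ILMN_1658695 (173.9 to 250.7) are lower on the 3 shaded arrays than on any other, and NUF2 ILMN_2406724 sits near background throughout.

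CCND1 intensity and the members are set side by side here, array by array. The rule fixed that each member was lower on the arrays under the limit of 4000 than on those over it. That step is therefore no test, and only its size is described. From cyclin D1 siRNA 2 (3513.1), just under the limit of 4000, to non-targeting siRNA 3 (4311.2), just over it, CCND1 differed by a ratio of 1.23. ERH stood at 1423.0 and 3662.4, CEP20 at 787.7 and 1753.8, and NUF2 ILMN_1658695 at 250.7 and 547.8 on these 2 arrays. Non-targeting siRNA 3 was the highest of all arrays for ERH. CDK4/6 siRNA 3, with CCND1 at 4361.3, had ERH at 2886.6, CEP20 at 1648.1 and NUF2 ILMN_1658695 at 440.1. On the 3 arrays with CCND1 between 4311.2 and 5100.1, the lowest member values were 2886.6 for ERH, 1648.1 for CEP20 and 359.7 for NUF2. For ERH, 2 of these 3 arrays lay within the range of the 6 arrays with CCND1 at 13658.8 or more (2744.6 to 3621.5) and non-targeting siRNA 3 lay just above it. CEP20, at 1648.1 to 1753.8, was below all 6 of those arrays, of which the lowest was 1777.0. NUF2 ILMN_1658695 ran from 359.7 to 547.8 on them and from 387.1 to 691.0 on the 6. On the 3 arrays with low CDK4 and CDK6 the members were likewise high, with ERH at 2744.6 to 3139.1, CEP20 at 1777.0 to 2005.5 and NUF2 at 387.1 to 534.3. These are descriptions of single arrays picked by CCND1 level. Whether the low values go with cyclin D1 loss itself or with an siRNA acting on other mRNAs was not tested.

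**Figure D2:**
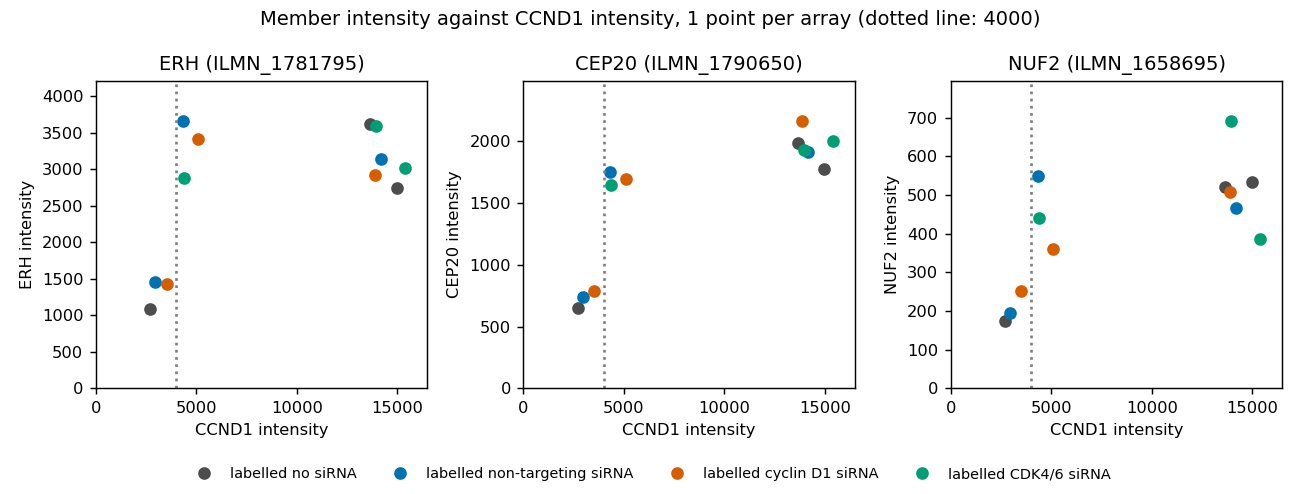
ERH, CEP20 and NUF2 (ILMN_1658695) intensity against CCND1 intensity, 1 point per array, coloured by label, with the limit of 4000 dotted. In each panel the 3 arrays left of the line lie below all others, as the rule that chose the members required. The arrays at 4311.2 to 5100.1 just right of the line have ERH of 2886.6 or more and CEP20 of 1648.1 or more.

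The 3 low arrays each fell under a different label. The rule therefore fixed that each was the lowest of its own label for the members, and only the sizes are described. CCND1 itself was 5.05- to 5.54-fold higher on the other arrays labelled no siRNA than on no siRNA 2. Its ratios were 1.46 to 4.81 for non-targeting siRNA 1 and 1.45 to 3.95 for cyclin D1 siRNA 2. ERH was 2.52- to 3.32-fold higher on the other 2 arrays labelled no siRNA than on no siRNA 2, 2.15- to 2.51-fold higher on the other non-targeting arrays than on non-targeting siRNA 1, and 2.06- to 2.4-fold higher on the other cyclin D1 siRNA arrays than on cyclin D1 siRNA 2. For CEP20 the ratios were 2.73 to 3.05, 2.38 to 2.59 and 2.15 to 2.75 in the same order. For NUF2 ILMN_1658695 they were 3.0 to 3.07, 2.4 to 2.82 and 1.43 to 2.02. No array labelled CDK4/6 siRNA was among the 3, and each of the other 3 labels, which go against the target levels as given above, held 1.

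Few probes separated these 3 arrays from the rest as widely. Of the 26814 tested probes, 394 (1.47%) had their 3 lowest values on the 3 low-CCND1 arrays, and 264 (0.985%) had their 3 highest there. All 5 probes of the members, genes chosen for low values on these arrays, were among the 394. By gene, with the brightest tested probe of each, 250 of 13492 (1.85%) were lowest on those arrays. Only 8 probes had a gap ratio of 1.4 or more, and the members held ranks 2, 3 and 7. The members were chosen for this separation, so their ranks describe the choice and are no test. The widest gap belonged to YAP1, a transcriptional coactivator of the Hippo pathway, at 662.2 to 740.4 on the 3 arrays and 1648.7 to 2310.3 on the others (2.23). MMP12, a macrophage metalloelastase, was at 234.3 to 285.1 against 440.9 to 560.6 (1.55), HDGF, a growth factor that also binds chromatin, at 660.1 to 750.6 against 1148.2 to 1361.8 (1.53), and CERS6, a ceramide synthase, at 296.3 to 378.9 against 551.9 to 802.9 (1.46). The gap of CCND1 itself was 1.23, rank 27, since its arrays fell into more than 2 levels.

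**Figure D3:**
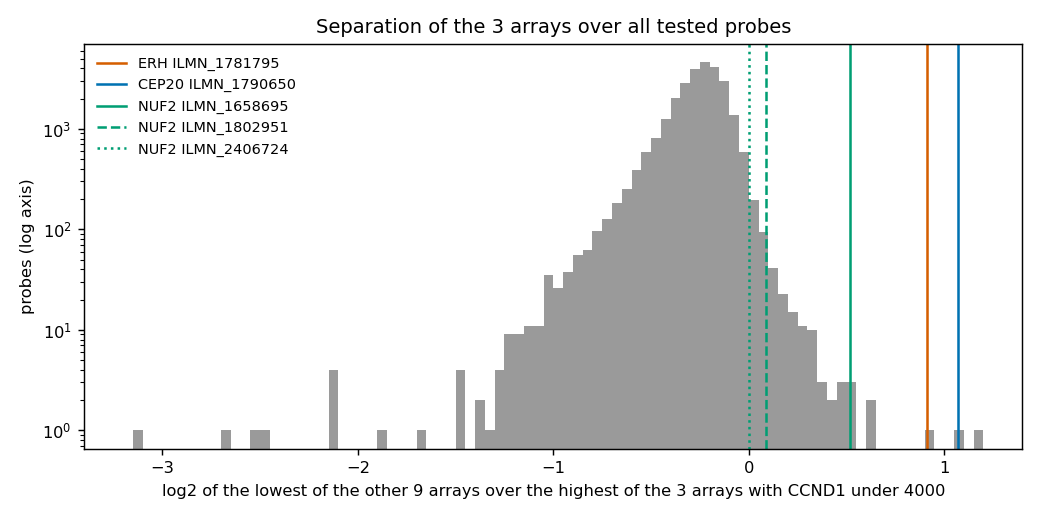
Number of tested probes (log axis) by log2 of the ratio of the lowest of the other 9 arrays to the highest of the 3 low-CCND1 arrays, with a line for each member probe. CEP20 (1.07), ERH (0.91) and NUF2 ILMN_1658695 (0.52) lie at the sparse right end, and the dimmer NUF2 probes (0.09 and 0.0) at the upper edge of the bulk. The members were chosen for this separation.

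The members were close to one another over all 12 arrays. Likeness was measured as the root mean square difference between the log2 deviations of a pair of probes from their own 12-array means, which is small when the pair moves alike in size as well as direction. ERH differed from CEP20 by 0.18 and from NUF2 by 0.24, and CEP20 from NUF2 by 0.24, against deviations of 0.57 for ERH, 0.59 for CEP20 and 0.57 for NUF2 taken alone. Each member had YAP1 as its closest probe, at 0.16 for ERH, 0.11 for CEP20 and 0.23 for NUF2, and MMP12 and CERS6 completed the 5 closest probes of each. The other NUF2 probes were only 77th (0.42) and 135th (0.44) closest to the brightest NUF2 probe. The members were chosen for the same 3 low arrays, which fixes much of this likeness.

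The mRNAs of NUF2's partners in the kinetochore had smaller ratios between arrays. NUF2 was chosen for its low values on the 3 arrays and the partners were not, so this difference is no test. NDC80, its direct partner in the kinetochore complex, was at 613.4 to 713.8 on the 3 low-CCND1 arrays and 701.9 to 978.2 on the others, so that the groups overlapped. SPC24 overlapped as well (1306.0 to 1428.4 against 1356.8 to 1911.4), and SPC25 did not (348.6 to 369.3 against 420.9 to 579.6, a gap ratio of 1.14). Of 17 measured outer kinetochore genes, SPC25 and BUB1, a checkpoint kinase (1210.2 to 1291.0 against 1359.2 to 1795.1), had their 3 lowest values on the 3 arrays. That is 2 of 17 beside 1.85% of all genes. The highest array exceeded the lowest 1.59-fold for NDC80, 1.46-fold for SPC24 and 1.66-fold for SPC25.

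Of the genes around CEP20 and ERH, 1 had its lowest values on the 3 arrays, beside 1.85% of all genes. Of 14 measured centriole and satellite genes, 1 was lowest on the 3 arrays, SSX2IP, a satellite protein that anchors microtubules, at 72.2 to 76.9 against 105.9 to 127.4 (1.38). PCM1, the scaffold of the satellites, was at 1065.5 to 1100.5 against 936.5 to 1260.5. Of 10 measured ERH-binding and Sm ring genes, none was lowest on the 3 arrays, with DGCR8 at 242.6 to 268.7 against 233.5 to 349.9 and DROSHA at 378.3 to 407.1 against 330.0 to 417.3. CIZ1, a nuclear ERH-binding protein, was at 67.7 to 73.0 against 69.2 to 90.1.

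Cell cycle genes lay somewhat below their means on the same arrays, and the E2F genes did so on other arrays too. The 27 measured E2F and DNA replication genes deviated from their 12-array means by -0.2, -0.16 and -0.1 on average (log2) on no siRNA 2, non-targeting siRNA 1 and cyclin D1 siRNA 2. They deviated by -0.25, -0.23 and -0.16 on non-targeting siRNA 2, no siRNA 3 and CDK4/6 siRNA 2, the arrays with low CDK4 and CDK6, where the members were high, and by 0.34 to 0.43 on CDK4/6 siRNA 1, cyclin D1 siRNA 1 and no siRNA 1. Of the 27 genes, MCM7 and CDC45, both part of the replicative helicase, were lowest on the 3 low-CCND1 arrays, with gap ratios of 1.03 and 1.02. The 18 measured G2/M genes deviated by -0.11, -0.1 and -0.13 there and by -0.02 to 0.13 on the other 9 arrays, and CDC20, KIF11 and BIRC5 (gap ratio 1.07 each) were lowest on the 3. These are 2 of 27 and 3 of 18 genes, beside 1.85% of all genes. As single genes chosen for low values there, the members had larger deviations. Those of ERH on the 3 arrays were -1.22, -0.81 and -0.84, those of CEP20 were -1.16, -0.98 and -0.89, and those of NUF2 were -1.1, -0.95 and -0.61. Any part of cell cycle position in the members' levels was not tested.

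**Figure D4:**
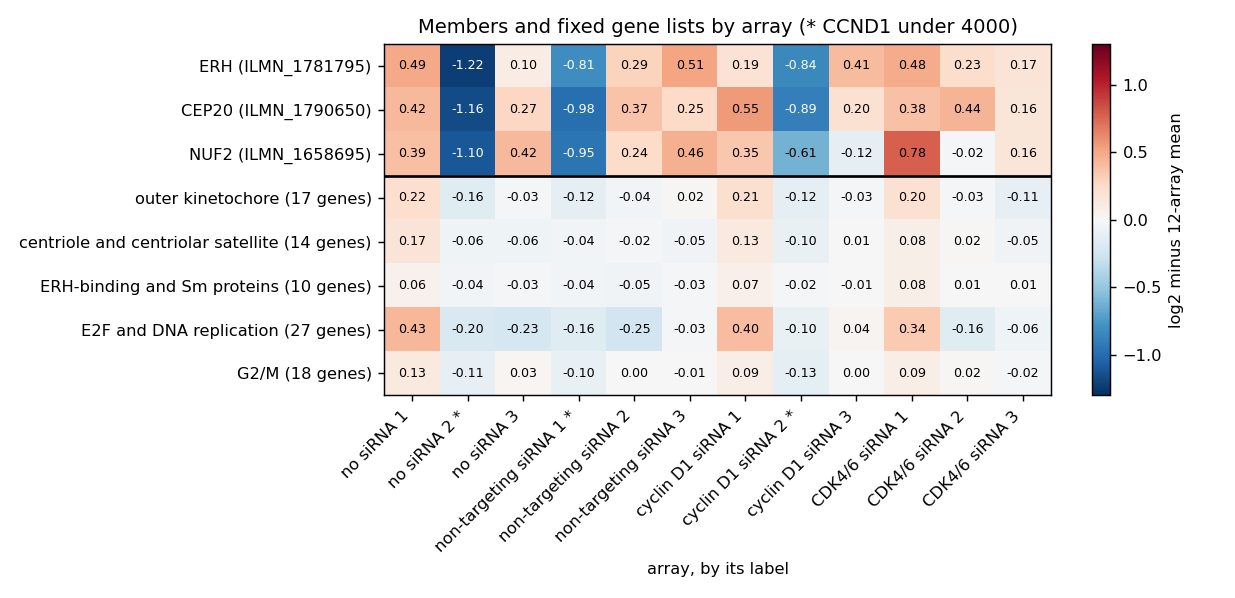
Log2 deviation from the 12-array mean on each array (asterisks: CCND1 below 4000) for the 3 members (upper rows) and as the mean of 5 gene lists (lower rows). The members stand at -1.22 to -0.61 on the 3 marked arrays, for which they were chosen, and the list means, each over many genes, lie there between -0.2 and -0.02, a difference in size that is no test.

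Between the groups as labelled, which do not follow the target levels, no member passed the test. The members were chosen for low values on 3 arrays, 1 each under the no siRNA, non-targeting and cyclin D1 siRNA labels. That choice fixed much of the spread within these labels and of the differences between labels. The p-values of the members are therefore no test of silencing. The intensities averaged 2485 ± 1290 (SD, n = 3 throughout) for ERH on the arrays labelled no siRNA, 2754 ± 1150 on the non-targeting, 2589 ± 1040 on the cyclin D1 siRNA and 3164 ± 377 on the CDK4/6 siRNA arrays. CEP20 averaged 1472 ± 719, 1468 ± 638, 1549 ± 700 and 1861 ± 188 in the same order. NUF2 ILMN_1658695 averaged 410 ± 205, 403 ± 185, 372 ± 129 and 506 ± 162. The dimmer NUF2 probes averaged 107 ± 44.1, 96.1 ± 20.0, 106 ± 35.2 and 113 ± 28.5 (ILMN_1802951), and 54.6 ± 10.6, 54.8 ± 9.1, 51.9 ± 6.73 and 57.0 ± 4.16 (ILMN_2406724). The CDK4/6 siRNA label had the highest mean of all 5 member probes, and each of the other labels held 1 of the 3 low arrays.

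The labelled comparison that asks for the effect of cyclin D1 silencing gave a log2 difference, cyclin D1 siRNA minus non-targeting siRNA, of -0.08 ± 0.46 (SE) for ERH, 0.07 ± 0.47 for CEP20 and -0.04 ± 0.45 for NUF2 ILMN_1658695. In limma with Benjamini-Hochberg adjustment over all 26814 probes the adjusted p was 0.9999 for each. Both labels held 1 of the low arrays for which the members were chosen, which by itself brings these differences nearer to each other. CCND1 differed by 0.15 ± 0.79 in that comparison, so that the mean of the label's own target was not below that of its control. The other NUF2 probes differed by 0.09 ± 0.27 (ILMN_1802951) and -0.05 ± 0.12 (ILMN_2406724). CDK4/6 siRNA minus non-targeting siRNA gave 0.3 for ERH, 0.45 for CEP20 and 0.39 for NUF2 ILMN_1658695 (limma, adjusted p = 0.9998). Cyclin D1 siRNA minus CDK4/6 siRNA gave -0.37, -0.38 and -0.43, and no siRNA minus non-targeting siRNA gave -0.21, -0.03 and -0.01 (limma, adjusted p = 1 in both), with the same standard errors.

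None of the 4 labelled comparisons called any probe in limma (0 of 26814, or 0%), and no gene of the 5 lists was called. The counts at an unadjusted p under 0.05 were 376 higher and 388 lower probes for cyclin D1 siRNA over non-targeting siRNA, 281 and 239 for CDK4/6 siRNA over non-targeting siRNA, 163 and 209 for cyclin D1 siRNA over CDK4/6 siRNA, and 241 and 267 for no siRNA over non-targeting siRNA. No member probe was among them. These counts were 2.85%, 1.94%, 1.39% and 1.89% of the tested probes, each below the share of 0.05 expected on average without any difference. The methods' t-test, adjusted in the same way, also called 0 probes in each comparison, and gave 666, 612, 412 and 639 probes at an unadjusted p under 0.05 in that order. The median log2 difference for cyclin D1 siRNA over non-targeting siRNA was 0.07 over the kinetochore list, 0.03 over the centriole list, 0.04 over the ERH-binding list, 0.26 over the E2F list and 0.02 over the G2/M list, beside 0 over all genes. The E2F median was likewise 0.21 for CDK4/6 siRNA and 0.16 for no siRNA over non-targeting siRNA. Each label but non-targeting held 1 array with an E2F mean deviation of 0.34 to 0.43.

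**Figure D5:**
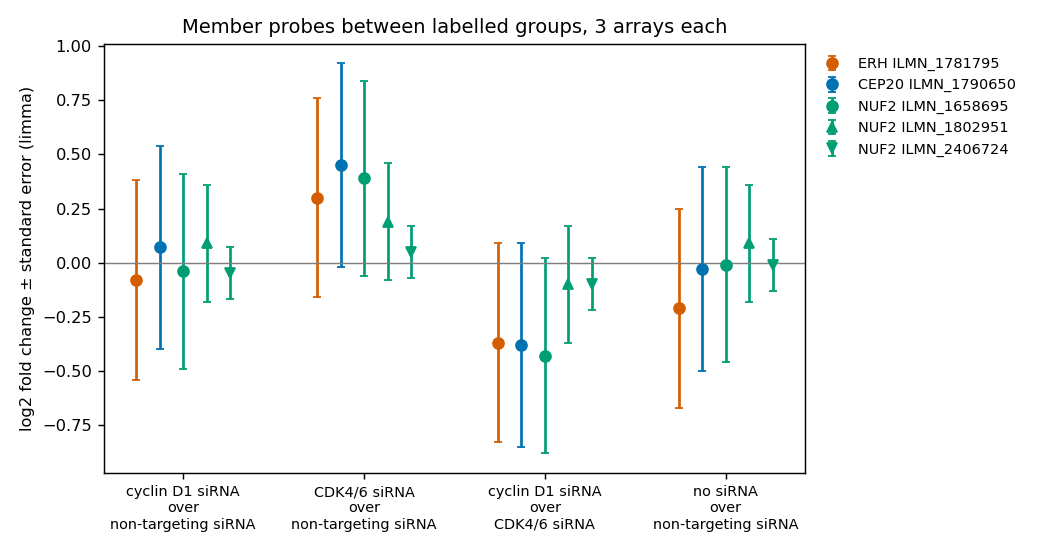
Log2 fold change ± standard error (limma) of the 5 member probes in each of the 4 comparisons between labelled groups of 3 arrays. No probe was called: ERH stands at -0.08 and CEP20 at 0.07 for cyclin D1 siRNA over non-targeting siRNA, and every error bar crosses 0.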

How the data were processed

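RNA of MDA-MB-231 cells was hybridised to Illumina arrays, 12 in all. The authors deposited linear probe intensity values with background still in them (median 44.1), evenly distributed over arrays as after quantile normalization. For the software and its settings, the sources used here give no name. A second deposited table with detection p-values has 24 per-sample columns, which were left out because none of their names matches a label. From the deposited intensities, log2 values were computed in R 4.3.3 with limma 3.58.1 by normexp correction (offset 50) and quantile normalization. A probe was tested if above the background level of 44.4 on at least 3 arrays (mode 39.5, plus 1.645 times the SD of 2.95 of the values below it). One limma fit over the 4 labelled groups gave 4 comparisons, with Benjamini-Hochberg adjustment over all tested probes and a threshold of 0.05. The fit was tested on simulated data. Gene symbols came from the platform annotation: 27578 probes had 1 symbol, 13 several and 21212 none, and 27541 were found by Entrez number in the RefSeq GRCh38.p14 table, with 0 symbols changed.

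The genes named were the members, the targets CCND1, CDK4 and CDK6, the genes of the gene lists, the 5 closest probes of each member and the 5 genes with the largest gap ratios. Members and lists were chosen with earlier results of these data known. For a gene with several probes, the brightest tested probe stood for the gene in the lists. Alternatives covered the background correction, the quantile step, the filter, array weights, the control group, the replicate block, the methods' t-test and leaving out each array. The number of arrays limits the precision. Figures were drawn in Python 3.11.15 with matplotlib 3.10.9.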

Additional observations from a re-analysis of the deposited data

How the results depend on the processing

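Of 208 member fits under other settings, 205 kept their direction and 3 were reversed, none of them called. Under many settings the direction could not change, because the difference of group means stayed as it was. These were the filter settings, 1 probe per gene, the methods' t-test, the replicate block and fits of only the 2 groups compared. ERH stayed at -0.078 under each of them for cyclin D1 siRNA over non-targeting siRNA, and also without the quantile step. For cyclin D1 siRNA over non-targeting siRNA, CEP20 went to -0.14 with array weights, and ERH went to 0.13 with no siRNA as the control and to 0.025 with both control groups; the cause was not tested. No setting called a probe (0 in each), the smallest adjusted p of a member was 0.9315, and probes at an unadjusted p under 0.05 numbered 137 to 1745. The probes whose 3 lowest arrays were the 3 low-CCND1 arrays numbered 394, and 480 with no filter and 355 with only probes above background on all 12 arrays.

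With each array left out in turn, 32 of 120 member fits changed direction, and the probes called stayed at 0. Cyclin D1 siRNA over non-targeting siRNA then ranged from -0.48 to 0.3 (ERH ILMN_1781795), -0.36 to 0.49 (CEP20 ILMN_1790650), -0.48 to 0.23 (NUF2 ILMN_1658695), -0.096 to 0.33 (NUF2 ILMN_1802951), -0.16 to 0.011 (NUF2 ILMN_2406724). CDK4/6 siRNA over non-targeting siRNA then ranged from -0.11 to 0.55 (ERH ILMN_1781795), 0.018 to 0.69 (CEP20 ILMN_1790650), -0.042 to 0.66 (NUF2 ILMN_1658695), 0.053 to 0.38 (NUF2 ILMN_1802951), -0.057 to 0.11 (NUF2 ILMN_2406724). Cyclin D1 siRNA over CDK4/6 siRNA then ranged from -0.62 to 0.006 (ERH ILMN_1781795), -0.67 to 0.045 (CEP20 ILMN_1790650), -0.67 to -0.19 (NUF2 ILMN_1658695), -0.29 to 0.14 (NUF2 ILMN_1802951), -0.18 to -0.058 (NUF2 ILMN_2406724). No siRNA over non-targeting siRNA then ranged from -0.61 to 0.3 (ERH ILMN_1781795), -0.46 to 0.47 (CEP20 ILMN_1790650), -0.44 to 0.49 (NUF2 ILMN_1658695), -0.17 to 0.32 (NUF2 ILMN_1802951), -0.11 to 0.11 (NUF2 ILMN_2406724). For ERH and CEP20, the lowest values in the first and last of these comparisons came without non-targeting siRNA 1, and the highest without cyclin D1 siRNA 2 or no siRNA 2, which are the low-CCND1 arrays.

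With the replicate block, 0 probes were called and no call changed. Replicate numbers were treated as names and not as pairs, since only 10 of 18 same-numbered pairs had a correlation over 0.1 (range -0.24 to 0.42). Their median was nonetheless higher, at 0.14 against -0.05 for pairs with different numbers. A fit with slide as the block could not be made, because the sources used here do not name slides. NUF2 ILMN_2406724 lies too near background for its ratio to be firm.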
